A study of Mus musculus with 6 samples.

Results

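Ribosome biogenesis is the nucleolar process in which RNA polymerase I transcribes the precursor of the ribosomal RNAs and a large set of assembly factors modifies, cuts and folds it into the small and the large ribosomal subunit. The genes described here were chosen by name for these functions. They comprise 40 genes of 47728 in the count table, and all 40 passed the filter on low counts that left 17074 genes for testing. By role they fall into 4 core proteins of box H/ACA particles, 4 core proteins of box C/D particles, 2 abundant nucleolar chaperones, 11 large-subunit assembly factors, 14 small-subunit assembly factors and 5 genes of the RNA polymerase I machinery.

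Total RNA from cerebral cortex was sequenced from 3 FAD5x and 3 Control samples, 1 library per sample. FAD5x mice are a model of Alzheimer's disease and, as background, carry transgenes under neuronal Thy1 control elements. The Control mice were C57BL/6 with no treatment named, and the sources used here give no age, sex or litter for either group. Separate animals are not stated, so the p-values measure only how far these libraries spread, which may be technical.

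Library totals were 17363946 to 24137936 counts. FAD5x replicates 1 and 2 carry related library names. Their counts differed by more than sampling noise (chi-square over degrees of freedom 56.8, where the pairs with replicate 3 gave 36.9 and 53.6), so they are not 1 library deposited under both names. Whether they come from 1 animal is not stated and cannot be told from this value. They were counted as separate samples because the labels number them so. Of Xist, Control replicate 1 held 3 counts, with 3124 counts from 4 Y-linked genes. The remaining libraries held 10346 to 22631 Xist counts and at most 9 from those genes. Neuron markers were present in every library. Summed neuron markers (8 genes) stood at 4896 to 7373 CPM (counts scaled by library size) in FAD5x and 4817 to 5953 CPM in Control. The highest sum was that of FAD5x replicate 2. Of the 8 markers 3 were above 0 and 0 were called (edgeR; 1 higher and 0 lower at an unadjusted p under 0.05). The higher one was Snap25 (log2 0.75, edgeR adjusted p = 0.202). None of the 8 was at 0 in all libraries. Other marker sums differed between libraries. Microglia markers (8 genes) were at 377 to 856 CPM in FAD5x and 268 to 397 CPM in Control, with 8 of 8 above 0 on the log2 scale and 1 called higher. Oligodendrocyte markers (7 genes) were at 3477 to 7464 CPM in FAD5x and 2851 to 3953 CPM in Control, with 7 of 7 above 0 and 1 called higher. Both of these sums overlapped between the groups. Astrocyte markers (6 genes) overlapped as well, at 3478 to 6077 CPM in FAD5x and 4104 to 5563 CPM in Control, with 5 of 6 below 0 and 0 called (edgeR; 1 higher and 0 lower at an unadjusted p under 0.05). The exception was Gfap, at 1508, 129 and 914 CPM in the FAD5x libraries, against 193, 169 and 119 CPM in the Control libraries (log2 2.41, adjusted p = 0.168). Endothelial and mural markers (7 genes) did not overlap, at 204 to 244 CPM in FAD5x and 251 to 329 CPM in Control, with 5 of 7 below 0 and 0 called (edgeR; 0 higher and 3 lower at an unadjusted p under 0.05). Meningeal fibroblast markers (5 genes) were at 9.06 to 42.8 CPM in FAD5x and 85.8 to 295 CPM in Control, with 5 of 5 below 0, 1 called lower and no overlap. Striatal neuron markers (6 genes) reached 1042 CPM in FAD5x replicate 1, against 98.6 to 185 CPM in the other 5 libraries. None of these markers was at 0 in all libraries. The members are used by every cell type. In bulk tissue a change in cell makeup and a change in RNA per cell cannot be told apart, and the part of these marker shifts in the results below was not tested.

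Box H/ACA particles convert chosen uridines of ribosomal RNA to pseudouridine, and box C/D particles add methyl groups to its riboses. In both, a guide RNA selects the site. Each H/ACA particle holds the enzyme dyskerin (Dkc1) with Nhp2, Nop10 and Gar1, and the same proteins bind telomerase RNA. Each C/D particle holds the methyltransferase fibrillarin (Fbl) with Nop56, Nop58 and Snu13. Nhp2 and Snu13 belong to the same family of RNA-binding proteins.

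The promoters of Nhp2, of its partners Gar1 and Nop10 and of Snu13 are shown because Nhp2 was the single member that passed the test, while Nop10 of the same particle had nearly equal group means. The sequences are the 100 bases before the annotated start in RefSeq (build GRCm38.p6), written 5′ to 3′ on the strand of the gene. Capitals mark CCGGAAG, a core motif of ETS factors, or its reverse complement CTTCCGG.
Nhp2, chr11:51619673-51619772, plus strand: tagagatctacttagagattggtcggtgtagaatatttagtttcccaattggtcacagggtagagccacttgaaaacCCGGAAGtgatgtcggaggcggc
Gar1, chr3:129831397-129831496, minus strand: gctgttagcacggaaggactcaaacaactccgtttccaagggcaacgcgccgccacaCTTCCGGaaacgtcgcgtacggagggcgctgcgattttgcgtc
Snu13, chr15:82047599-82047698, minus strand: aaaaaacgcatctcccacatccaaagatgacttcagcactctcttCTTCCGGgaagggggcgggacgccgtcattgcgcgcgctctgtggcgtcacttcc
Nop10, chr2:112261826-112261925, plus strand: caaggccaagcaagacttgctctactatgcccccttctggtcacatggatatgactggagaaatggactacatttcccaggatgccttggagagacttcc

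The motif begins 23 bases before the start of Nhp2, 43 before that of Gar1 and 55 before that of Snu13, and is not in the Nop10 stretch. Promoter windows (250 bases before to 50 after a start) were matched for 34 of the 40 members, with 42 windows in all. CCGGAAG on either strand occurred in 16 of these 42 windows (38.1%), against 8.86% of all 32851 windows. The E-box CACGTG, a motif of Myc family factors, occurred in 8 of 42 (19.05%), against 7.15% of all windows. TATAAA on either strand occurred in 2 of 42 (4.76%), against 13.6% of all. The 15 members with CCGGAAG had a median log2 fold change of 0.076, against 0.18 over the 19 matched members without it. It was -0.0037 over the 8 members with CACGTG and 0.21 over the 26 without it. The background of 32851 windows was not limited to tested genes and not matched for GC content. A letter match is a description of the window and not evidence of binding.

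Among all 40 members 1 rose in FAD5x cortex, Nhp2, and 0 fell (edgeR quasi-likelihood test, adjusted p over all 17074 tested genes). Over all tested genes 537 (3.15%) were called, 1.76% higher and 1.39% lower. DESeq2 also called 1 member higher and 0 lower, where it called 4.47% of all tested genes higher and 4.23% lower. Limma-voom called 0 members, with 1.45% of all tested genes higher and 1.32% lower. At an unadjusted p under 0.05 edgeR had 7 members higher and 0 lower. The background share at that unadjusted level was 11.2% higher and 10.1% lower. The 7 members were Nhp2, Npm1, Gar1, Snu13, Noc2l, Imp3 and Nop14, and of these only Nhp2 passed after adjustment.

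The members as a group lay slightly above 0. Their median log2 fold change, FAD5x over Control, was 0.17, with quartiles of -0.016 and 0.30, against a median of 0.015 over all tested genes with quartiles of -0.25 and 0.28. Fold changes ran over a narrow range, between -0.18 (Utp6) and 0.64 (Nhp2), and 28 of 40 members (70.0%) were above 0, against 51.5% of all tested genes. In 14 members every FAD5x library was above every Control library, and in 1 member, Nop2, every FAD5x library was below. Such separation was seen for 14.1% of all tested genes in the higher and 13.2% in the lower direction, 27.4% in all.

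By role, median log2 fold changes were 0.48 over the H/ACA proteins, 0.30 over the chaperones, 0.22 over the C/D proteins, 0.15 over large-subunit factors, 0.026 over small-subunit factors and 0.0080 over the polymerase I genes. No test compares these role groups, and the smaller ones hold only 2 to 5 genes.

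**Figure D1:**
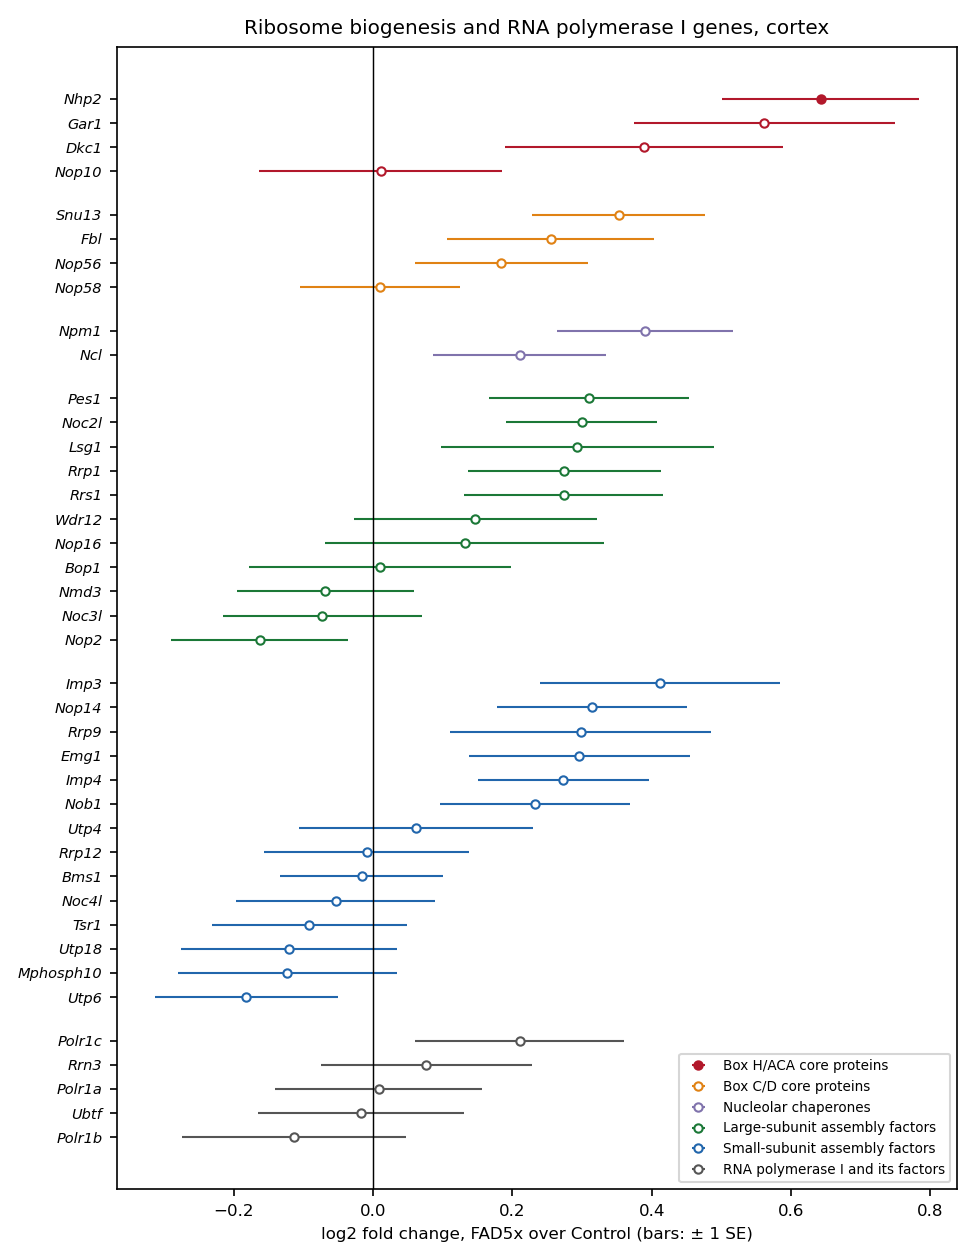
Log2 fold change (FAD5x over Control, horizontal axis) of each of the 40 members, grouped by role in colour; points are edgeR estimates, bars are 1 standard error either way and the filled point has an adjusted p under 0.05. Nhp2 at 0.64 is the only filled point, and 28 of 40 points lie to the right of 0.

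Nhp2 (ENSMUSG00000001056) had 22.3, 26.3 and 23.5 CPM in FAD5x replicates 1, 2 and 3, against 13.8, 16.1 and 16.2 CPM in Control replicates 1, 2 and 3. The lowest FAD5x library was above the highest Control library. Nhp2 averaged 24.02 ± 2.02 CPM in FAD5x and 15.4 ± 1.36 CPM in Control (SD, n = 3 each), a 1.56-fold rise (log2 0.64 ± 0.14 SE; edgeR quasi-likelihood test, adjusted p = 0.0494). The call lay at the edge of the threshold. It ended when any single library was left out, with an adjusted p of 0.0831, 0.0627 and 0.0733 on leaving out FAD5x replicates 1, 2 and 3 in turn, and of 0.204, 0.150 and 0.127 on leaving out Control replicates 1, 2 and 3. With FAD5x replicates 1 and 2 summed into 1 sample the adjusted p was 0.0548. With trends in gene length and GC content taken out, the log2 fold change of Nhp2 was 0.41 (adjusted p = 0.165). In the annotation 44 bases (3.84%) of Nhp2 exons overlap Rmnd5b on the opposite strand, and without known strandedness reads there cannot be assigned.

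Gar1, the H/ACA protein that helps substrates enter and leave the particle, had 8.90, 9.79 and 11.8 CPM in FAD5x replicates 1, 2 and 3, against 7.32, 6.63 and 6.65 CPM in Control replicates 1, 2 and 3. The groups did not overlap, but the difference did not pass the test (log2 0.56 ± 0.19 SE, adjusted p = 0.141). Its counts were the lowest of the members, 118 to 225 per library. Dkc1, the pseudouridine synthase itself and an X-linked gene, had 21.7, 30.2 and 21.5 CPM in FAD5x cortex, against 22.7, 15.2 and 18.2 CPM in Control cortex. These groups overlapped (log2 0.39 ± 0.20 SE, adjusted p = 0.309), and the highest Control value was that of replicate 1, the library with Y-linked counts. Without that library the log2 fold change of Dkc1 was 0.55 (adjusted p = 0.316), the highest with any single library left out. The lowest such value was 0.22.

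Nop10, the smallest protein of the particle, had 14.6, 20.7 and 16.2 CPM in FAD5x replicates 1, 2 and 3, against 18.5, 15.0 and 17.7 CPM in Control replicates 1, 2 and 3. The groups overlapped fully and the log2 fold change was 0.011 ± 0.17 SE (adjusted p = 0.981). Since all 4 proteins sit in the same particle, the ratio of Nhp2 to each partner was compared within libraries. The log2 ratio of Nhp2 to Nop10 was 0.61, 0.34 and 0.53 in FAD5x and -0.42, 0.10 and -0.12 in Control, so that the groups did not overlap. The exact permutation test gave a two-sided p of 0.1, the smallest that 3 against 3 allows, and an adjusted p of 0.4 over 6 such ratios. The mean log2 ratio of Nhp2 to Gar1 was 1.25 in FAD5x and 1.16 in Control (exact permutation p = 0.5), and that of Nhp2 to Dkc1 was -0.012 in FAD5x and -0.27 in Control (exact permutation p = 0.5). Neither of these last ratios separated the groups.

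Among the C/D proteins, Snu13, which binds the kinked RNA fold that nucleates the particle and is also a splicing factor, had the highest level per length. It had 74.1, 88.1 and 81.8 CPM in FAD5x replicates 1, 2 and 3, against 59.0, 62.9 and 69.2 CPM in Control replicates 1, 2 and 3. The groups did not overlap, and the difference did not pass the test (log2 0.35 ± 0.12 SE, adjusted p = 0.155). The methyltransferase gene Fbl averaged 26.0 ± 3.37 CPM in FAD5x and 21.8 ± 1.95 CPM in Control (log2 0.26, adjusted p = 0.371). The scaffold proteins Nop56 and Nop58 had log2 fold changes of 0.18 and 0.010 (adjusted p = 0.441 and 0.974). Nop58 was steady across libraries, at 40.7, 36.2 and 38.7 CPM in FAD5x cortex, against 40.4, 37.6 and 37.0 CPM in Control cortex. Part of the Fbl transcript, 57.6% of its length, also aligned to a transcript of Tulp4 at 95% identity or more, so the Fbl count is uncertain.

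The chaperones are the most abundant nucleolar proteins, and both genes were separated between the groups without passing the test. Npm1, nucleophosmin, had 97.5, 97.0 and 113 CPM in FAD5x replicates 1, 2 and 3, against 85.4, 72.9 and 76.1 CPM in Control replicates 1, 2 and 3 (log2 0.39 ± 0.13 SE, adjusted p = 0.133). Ncl, nucleolin, had 239, 254 and 236 CPM in FAD5x cortex, against 219, 197 and 214 CPM in Control cortex (log2 0.21 ± 0.12 SE, adjusted p = 0.377). Npm1 has 2 processed copies in the table, but these held at most 5 counts in any library. The ratio of Npm1 to Ncl had a mean log2 of -1.25 in FAD5x and -1.43 in Control (exact permutation p = 0.2), and the groups overlapped.

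**Figure D2:**
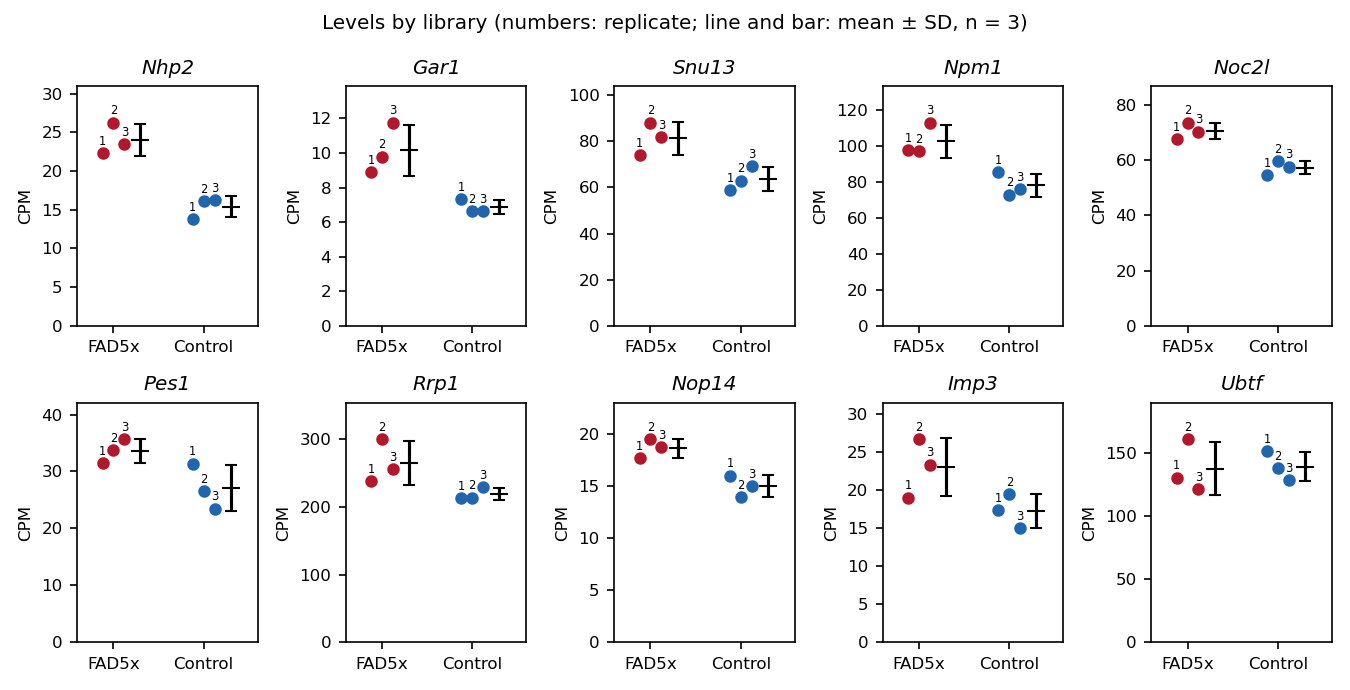
CPM (vertical axes, each from 0) of 10 members in every library, FAD5x left and Control right; points are libraries with replicate numbers, and the line with bar is the mean ± SD of 3 libraries. Nhp2, Gar1, Snu13, Npm1, Noc2l, Pes1, Rrp1 and Nop14 show no overlap between groups, whereas Imp3 and Ubtf do.

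Large-subunit factors showed 4 members with every FAD5x library higher, Pes1, Noc2l, Rrp1 and Rrs1, and 1 with every FAD5x library lower, Nop2. None passed the test. Over all tested genes such separation was seen for 14.1% in the higher and 13.2% in the lower direction. Noc2l, a protein of early large-subunit precursors, had 67.6, 73.5 and 70.3 CPM in FAD5x replicates 1, 2 and 3, against 54.6, 59.5 and 57.6 CPM in Control replicates 1, 2 and 3 (log2 0.30 ± 0.11 SE, adjusted p = 0.166). Noc2l shares 20.9% of its exon bases with Samd11 on the opposite strand, which held 20 to 79 counts per library. Rrp1 had the highest level per length of all 40 members, 72.4 CPM per kb of exon. It stood at 238, 300 and 256 CPM in FAD5x cortex, against 213, 214 and 229 CPM in Control cortex (log2 0.27 ± 0.14 SE, adjusted p = 0.299), with FAD5x replicate 2 well above the rest.

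Pes1, Bop1 and Wdr12 form a complex, named PeBoW after its members, that is needed to process the large-subunit RNA. Pes1 had 31.5, 33.8 and 35.7 CPM in FAD5x replicates 1, 2 and 3, against 31.4, 26.5 and 23.5 CPM in Control replicates 1, 2 and 3 (log2 0.31 ± 0.14 SE, adjusted p = 0.259). The gap was small, since FAD5x replicate 1 and Control replicate 1 were nearly equal. Bop1 had 35.1, 50.5 and 35.5 CPM in FAD5x cortex, against 33.3, 39.9 and 47.0 CPM in Control cortex, and the log2 fold change was 0.010 (adjusted p = 0.983). Wdr12 had a log2 fold change of 0.15 ± 0.17 SE (adjusted p = 0.676). The 3 genes of this complex thus gave estimates between 0.010 and 0.31 with standard errors of 0.14 to 0.19.

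The remaining large-subunit genes spanned -0.16 to 0.29 on the log2 scale. Nop2, a methyltransferase of large-subunit RNA, had 18.5, 20.6 and 19.2 CPM in FAD5x replicates 1, 2 and 3, against 21.9, 22.7 and 20.7 CPM in Control replicates 1, 2 and 3. Its groups were separated by only a small gap (log2 -0.16 ± 0.13 SE, adjusted p = 0.512). Rrs1, which helps to place a small ribosomal RNA in the subunit, had a log2 fold change of 0.27 and Lsg1, a cytoplasmic GTPase, of 0.29 (adjusted p = 0.316 and 0.438). Nmd3, the adaptor that carries the subunit out of the nucleus and that Lsg1 releases, had -0.069 (adjusted p = 0.802). Nop16 and Noc3l had 0.13 and -0.073 (adjusted p = 0.752 and 0.815).

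Small-subunit factors were evenly divided, with 7 of 14 above 0 and 7 below, and 0 were called in either direction by edgeR. DESeq2 and limma-voom also called 0. In edgeR 2 of 14 had an unadjusted p under 0.05, both higher, against 11.2% of all tested genes higher at that level. Imp3, Imp4 and Mphosph10 bind together to the U3 small nucleolar RNA. Imp3, the shortest member gene, had 19, 26.7 and 23.4 CPM in FAD5x replicates 1, 2 and 3, against 17.4, 19.5 and 15.0 CPM in Control replicates 1, 2 and 3. Its groups overlapped by a narrow margin (log2 0.41 ± 0.17 SE, adjusted p = 0.218). A near-identical copy, 4933427G23Rik, held 2.54% to 11.4% as many counts. Imp4 had 24.4, 23.5 and 22.7 CPM in FAD5x cortex, against 20.1, 19.1 and 19.1 CPM in Control cortex (log2 0.27 ± 0.12 SE, adjusted p = 0.244), with little spread in either group and no overlap. Mphosph10 had the opposite sign, with a log2 fold change of -0.12 ± 0.16 SE (adjusted p = 0.702). Within this complex the estimates therefore did not share a sign, and no difference between them was tested.

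Nop14, which acts with Noc4l in early small-subunit precursors, had 17.7, 19.5 and 18.8 CPM in FAD5x replicates 1, 2 and 3, against 16.0, 13.9 and 15.0 CPM in Control replicates 1, 2 and 3. The groups did not overlap (log2 0.31 ± 0.14 SE, adjusted p = 0.231). Its partner Noc4l had a log2 fold change of -0.053 ± 0.14 SE (adjusted p = 0.871). Of the other factors, Emg1, a methyltransferase of small-subunit RNA, and Nob1, the nuclease that makes the final cut of that RNA, had no overlap between groups. Their log2 fold changes were 0.30 and 0.23 (adjusted p = 0.328 and 0.376). The processome proteins Utp4, Utp6 and Utp18 had 0.061, -0.18 and -0.12 (adjusted p = 0.874, 0.473 and 0.703), and Rrp9, a protein of the U3 particle, had 0.30 (adjusted p = 0.409). Bms1, Rrp12 and Tsr1 lay at -0.016, -0.0089 and -0.091 (adjusted p = 0.958, 0.981 and 0.756). Tsr1 shares 32.3% of its exon bases with Srr on the opposite strand, so its count is uncertain.

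The RNA polymerase I genes were the role group closest to 0. Ubtf, which binds and opens the ribosomal RNA genes, had the highest level per length of this group. It had 130, 161 and 121 CPM in FAD5x replicates 1, 2 and 3, against 151, 137 and 128 CPM in Control replicates 1, 2 and 3. The FAD5x range enclosed the Control range, and the log2 fold change was -0.017 ± 0.15 SE (adjusted p = 0.966). The catalytic subunits Polr1a and Polr1b had 0.0080 ± 0.15 SE and -0.11 ± 0.16 SE (adjusted p = 0.984 and 0.730). Polr1c, a subunit shared with RNA polymerase III, had 14.2, 12.7 and 12.3 CPM in FAD5x cortex, against 11.2, 11.1 and 11.6 CPM in Control cortex, with no overlap (log2 0.21 ± 0.15 SE, adjusted p = 0.467). Rrn3, which brings the polymerase to the promoter and is regulated by growth signals, had 0.076 ± 0.15 SE (adjusted p = 0.816).

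Relative to the Control mean, the median of all 40 members was 0.11, 0.27 and 0.14 on the log2 scale in the FAD5x libraries, by replicate number, and 0.030, -0.029 and 0.032 in the Control libraries. The median over all tested genes stayed between -0.0037 and 0.013 in the 6 libraries. FAD5x replicate 2 stood highest, and 17 of the 40 members had their highest value there. The same held for 7 members each in FAD5x replicates 1 and 3 and for 3 in each Control library. The rank of FAD5x replicate 2 depends on the scaling factors of library size, 1.007, 0.9133 and 1.067 in FAD5x replicates 1, 2 and 3. Summed neuron markers were also highest in FAD5x replicate 2, and their part in this rank was not tested. Without FAD5x replicate 2 the members' median log2 fold change was 0.10. The summed level of the members was 1698, 1889 and 1716 CPM in FAD5x cortex, against 1603, 1520 and 1601 CPM in Control cortex, over scaled library sizes. By role, only small-subunit and polymerase I genes had sums that overlapped between the groups. The polymerase I sums were 261, 290 and 232 CPM in FAD5x cortex, against 279, 243 and 257 CPM in Control cortex.

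**Figure D3:**
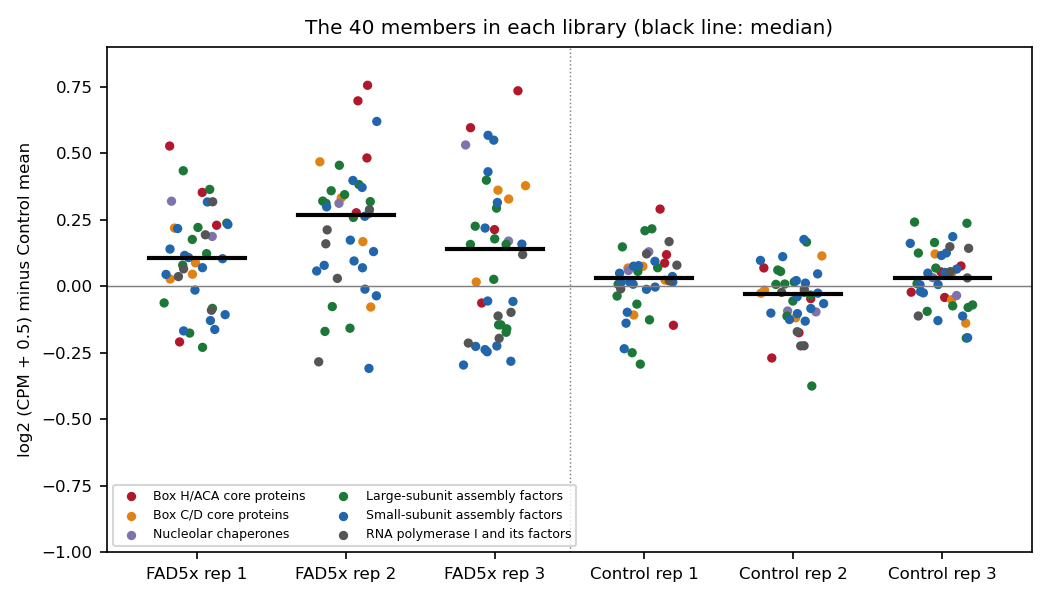
Each of the 40 members in each library, as log2(CPM + 0.5) minus its Control mean (vertical axis), with FAD5x libraries left and Control libraries right; colours mark roles and black lines the medians. The median is 0.27 in FAD5x replicate 2, 0.11 and 0.14 in the other FAD5x libraries and between -0.029 and 0.032 in Control.

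The members had a lower median spread within groups than all tested genes, in a comparison not matched for count level. The median coefficient of variation between libraries of a group was 11.1% in FAD5x and 8.23% in Control for the members, against 18.5% and 13.6% for all tested genes. Levels per kb of exon ranged from 72.4 CPM for Rrp1, 33.9 for Npm1 and 24.8 for Snu13 down to 2.26 for Nmd3 and 2.25 for Lsg1. Exon length here is the union of all annotated exons, so levels of genes with many long transcript forms, such as Wdr12 at 11955 bases, are understated.

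Short members had higher fold changes than long ones. Across the 40 genes, which are not independent replicates and share all 6 libraries, Spearman's rho of log2 fold change with exon length was -0.40, and with GC content 0.25. The same measures over 16989 tested genes with a known length were -0.26 and 0.17. The 20 shorter members (924 to 3597 bases) had a median log2 fold change of 0.27, with 17 of 20 above 0 and 11 with every FAD5x library higher. Of all 6448 tested genes in that length range 63.2% were above 0, and 1327 had every FAD5x library higher. The 20 longer members (3700 to 11955 bases) had a median of 0.0090, with 11 of 20 above 0 and 3 with every FAD5x library higher. Of all 8496 tested genes in that range 44.2% were above 0, and 834 had every FAD5x library higher. The medians of all tested genes were 0.13 in the shorter and -0.040 in the longer range. With length and GC trends taken out of every library, the median of the members was 0.14, and 0 members were called (edgeR). The part of gene length in the single estimates was not tested further.

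**Figure D4:**
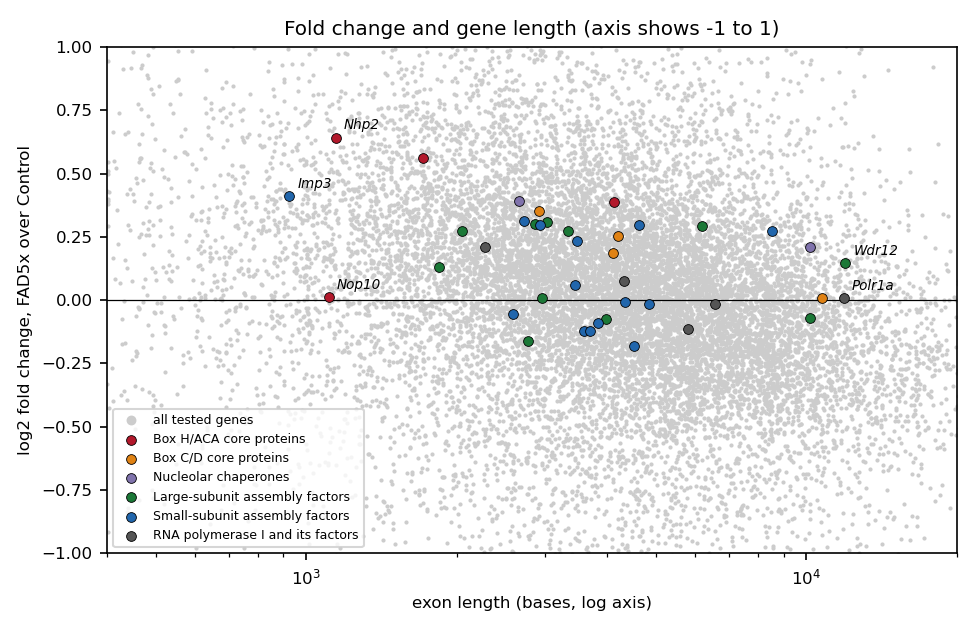
Log2 fold change (FAD5x over Control, vertical axis, limited to -1 to 1) against exon length in bases (horizontal log axis) for all tested genes in grey and the 40 members coloured by role. Members of 924 to 3597 bases have a median of 0.27 and those of 3700 to 11955 bases a median of 0.0090.

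The other genes of the pathway were taken from lists of known factors. In edgeR 11.2% of all tested genes were higher and 10.1% lower at an unadjusted p under 0.05. At an adjusted p under 0.05 the shares were 1.76% higher and 1.39% lower. These shares are the background for each list below. Among 40 tested small-subunit processome factors 1 rose, Ngdn, and 0 fell (edgeR, with 6 higher and 0 lower at an unadjusted p under 0.05). Ngdn, neuroguidin, is also known to bind a translation initiation factor in neurons. It had 15.1, 16.8 and 14.5 CPM in FAD5x replicates 1, 2 and 3, against 7.93, 7.42 and 7.99 CPM in Control replicates 1, 2 and 3, a 1.98-fold rise with wide separation (log2 0.99 ± 0.16 SE, adjusted p = 0.0177). Its call ended on leaving out FAD5x replicate 1 (adjusted p = 0.0541) or Control replicate 1, 2 or 3 (adjusted p = 0.0793, 0.0989 and 0.0669). The list median was 0.044.

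Among 12 tested snoRNA host genes, whose introns encode the guide RNAs of the particles above, 1 rose, Gas5, and 0 fell (edgeR, with 2 higher and 0 lower at an unadjusted p under 0.05). Gas5 is a non-coding host of box C/D RNAs. It had 78.0, 74.0 and 85.1 CPM in FAD5x replicates 1, 2 and 3, against 48.8, 52.5 and 47.0 CPM in Control replicates 1, 2 and 3, a 1.598-fold rise (log2 0.68 ± 0.12 SE, adjusted p = 0.0228). The groups were far apart relative to their spread. Leaving out FAD5x replicate 1 (adjusted p = 0.0616) or Control replicate 1, 2 or 3 (adjusted p = 0.119, 0.0989 and 0.0967) ended the call. The hosts did not move together, with 6 above 0, 6 below and a median of 0.018. Snhg14, the long host of the Snord116 cluster, had 265, 160 and 297 CPM in FAD5x cortex, against 418, 299 and 299.7 CPM in Control cortex with a narrow gap between the groups (log2 -0.49 ± 0.25 SE, adjusted p = 0.296).

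The other 5 lists of protein factors had 0 called genes (edgeR). The 42 other large-subunit factors had a median log2 fold change of 0.12, with 5 higher and 1 lower at an unadjusted p under 0.05. Mrto4, which prepares the stalk of the large subunit, had the smallest p of them (log2 0.61 ± 0.15 SE, adjusted p = 0.0697), and DESeq2 called it higher (adjusted p = 0.0223). Gnl3l, a nucleolar GTPase, had the highest level per length and a log2 fold change of -0.011. The 16 other polymerase I subunits and promoter factors had a median of 0.13, with 1 higher and 0 lower at an unadjusted p under 0.05. That gene was Polr2e, a subunit common to all 3 nuclear polymerases (log2 0.59 ± 0.17 SE, adjusted p = 0.0958; DESeq2 adjusted p = 0.0453). The 12 factors that assemble the RNA-modifying particles had a median of 0.092, with the smallest p at Ruvbl1 (log2 0.36 ± 0.16 SE, adjusted p = 0.228). The 13 exosome genes had a median of 0.11, with the smallest p at Exosc3 (log2 0.54 ± 0.21 SE, adjusted p = 0.182).

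The list of growth regulators holds the Myc network and cell cycle genes that act on ribosome synthesis. Its 13 tested genes had a median of -0.0022, with 2 higher and 4 lower at an unadjusted p under 0.05. The higher were Mnt and Trp53, and the lower were Mxd4, Mycn, Mycl and Rb1. Myc itself had a log2 fold change of 0.00032. Mycn, Mycl and Rb1 had -0.77, -0.46 and -0.59 (edgeR adjusted p = 0.229, 0.219 and 0.138), and Trp53 had 0.34 (adjusted p = 0.184). Mxd4, a repressor that competes with Myc for its partner Max, had 76.2, 79.8 and 72.1 CPM in FAD5x replicates 1, 2 and 3, against 112, 121 and 97.6 CPM in Control replicates 1, 2 and 3. The groups were apart (log2 -0.53 ± 0.13 SE, adjusted p = 0.0609), and DESeq2 called it lower (adjusted p = 0.00647). Mnt, another such repressor, had the opposite sign, with a log2 fold change of 0.46 ± 0.11 SE (adjusted p = 0.0716; DESeq2 adjusted p = 0.0284). Max had the highest level per length and a log2 fold change of -0.0022.

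**Figure D5:**
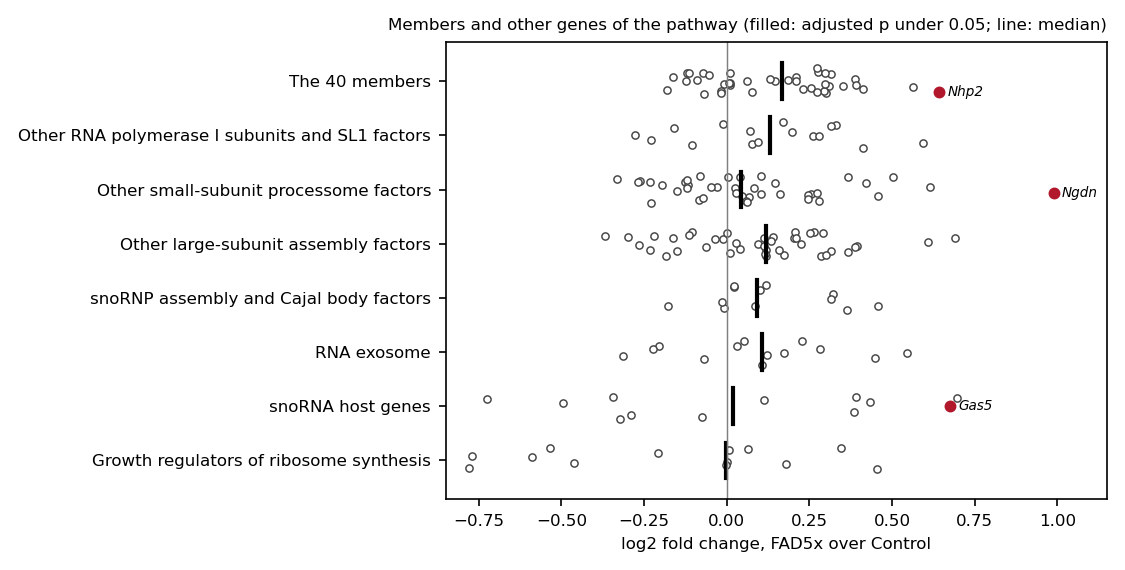
Log2 fold change (FAD5x over Control, horizontal axis) of the 40 members and of the tested genes of 7 other lists, with black lines at the medians and filled points at an adjusted p under 0.05. Nhp2, Ngdn and Gas5 are filled, and the medians run between -0.0022 and 0.17.

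Most genes of box C/D and box H/ACA RNAs and most ribosomal RNA loci held few or no counts in these libraries. Of 99 box C/D RNA genes with a count column 12 passed the filter, and of 42 box H/ACA RNA genes 2 did, with 0 called (edgeR; at an unadjusted p under 0.05 there was 1 C/D gene higher, Snord55, and 0 H/ACA genes). Most of the 12 tested C/D genes were copies of Snord116. Snord55 held at most 1.57 CPM in any library (log2 1.49 ± 0.53 SE, adjusted p = 0.159). Snora75 and Snord57, which lie within exons of Ncl and Nop56 on the same strand, held 0 counts. Whether reads of such RNAs were lost in the assignment to genes was not tested. The H/ACA RNAs summed to 4.596 to 5.80 CPM in FAD5x and 5.59 to 6.57 CPM in Control, over deposited totals. The ribosomal RNA loci Gm42418, AY036118 and Rn5s held 0 counts in all 6 libraries, which allows a level of up to 0.173 CPM in the shallowest. These limits cover counting error only. The single tested locus of that list, Gm26917, had 19.5, 38.5 and 49.4 CPM in FAD5x cortex, against 48.8, 32.8 and 32.6 CPM in Control cortex (log2 -0.091 ± 0.33 SE, adjusted p = 0.908). The telomerase RNA Terc, which binds the H/ACA proteins, had 0, 2 and 3 counts in FAD5x and 0 in each Control library, at the limit of detection.

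For comparison, the cytosolic ribosomal protein genes, which encode the structural proteins these factors assemble, had 34 of 82 called higher and 1 lower in the same fit. Over all tested genes 1.76% were called higher and 1.39% lower. The median log2 fold change of the 82 was 0.64, and the lowest was -5.15. Their median in single libraries was 0.60, 0.55 and 0.80 in the FAD5x libraries and -0.051, 0.17 and -0.11 in the Control libraries, by replicate number. Over scaled library sizes the order of the FAD5x libraries was not that of the biogenesis genes, which were highest in FAD5x replicate 2. The top rank of FAD5x replicate 2 among the biogenesis genes depends on the scaling factors, which were 1.007, 0.9133 and 1.067 in FAD5x replicates 1, 2 and 3. The difference between these gene groups was not tested. They were not matched for exon length, and shorter genes had higher fold changes over all tested genes.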

How the data were processed

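The authors deposited raw counts per Ensembl gene in 47729 lines with a column per library, and 1 line with a cell that is not a number was left out. The submitters' processing notes name build GRCm39, the aligner STAR 2.7.11b, the counter featureCounts and, with no order given, limma, cutadapt and edgeR 3.38.4. Strandedness, the treatment of reads with several matches and the library preparation are not given in the sources used here. Columns were matched by library name. Symbols, types and exon lengths came from GENCODE annotation of the earlier build GRCm38 by identifier (47309 matched, 419 not), and no coordinates of the counts are used.

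The test across genes was that of edgeR 4.0.16 under R 4.3.3 (filterByExpr, trimmed mean of M values, robust quasi-likelihood F-test, two-sided, Benjamini-Hochberg, called at an adjusted p under 0.05). CPM use scaled library sizes, except sums over marker and RNA lists, which use deposited totals. Alternatives used limma 3.58.1 and DESeq2 1.42.0. The fit was tested on simulated counts. The members and lists were chosen with earlier results of these data known. Copies were sought with minimap2 at 95% identity over 50% of a transcript. Values per library are given for members called, with an unadjusted p under 0.05, or apart with a log2 size of 0.3 or more, and for the highest per length in each role; library values of further members and listed genes were picked with those values in view. Of the listed pathway genes 6 are not analysed here.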

Additional observations from a re-analysis of the deposited data

How the results depend on the processing

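Of 16 alternatives 4 called Nhp2, and no other member was called in any setting. The count of members called was 0 with limma-voom, library totals only, RLE size factors, length and GC trends taken out, the replicate block and FAD5x replicates 1 and 2 summed, and 0 to 0 with each library left out. Adjusted p for Nhp2 ranged over 0.00751 to 0.204. All called genes, 537 in the fit reported, were 1485 with DESeq2, 1063 with no filter on low counts, and 81 to 989 with single libraries left out. The 2 called genes of the other lists became 6 with DESeq2, 4 with no filter and 1 with protein-coding genes only. That last fit left out Gas5 by design, since Gas5 is non-coding. With single libraries left out the count was 0 to 3. The members' median stayed within 1 SD of the library medians, at 0.10 to 0.20 with single libraries left out. The cause of the other changes was not tested.

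With the replicate number as a block, 72 genes were called, 0 members and 0 genes of the other lists. Same-numbered libraries did not deviate together (correlations of -0.0427, -0.0928 and -0.305), and pairs with unlike numbers ran from -0.209 to 0.299. With 3 libraries per group these values cannot exclude that the numbers pair the samples, which the labels do not state.

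The sign held in every alternative for 28 members. For the other 12, all uncalled, it changed in 38 values. Nop10 was -0.0046 with limma-voom. With library totals only, Bop1 was -0.016, Nop10 -0.018, Nop58 -0.0048 and Polr1a -0.014. With length and GC trends taken out, Bop1 was -0.15, Nmd3 0.081, Nop10 -0.14, Nop16 -0.041 and Ubtf 0.029. With FAD5x replicates 1 and 2 summed, Bop1 was -0.053, Utp4 -0.018, Nop10 -0.027 and Polr1a -0.050. With single libraries left out the ranges were -0.059 to 0.025 (Bms1), -0.17 to 0.14 (Bop1), -0.12 to 0.012 (Noc4l), -0.14 to 0.12 (Nop10), -0.0047 to 0.24 (Nop16), -0.031 to 0.061 (Nop58), -0.093 to 0.11 (Polr1a), -0.030 to 0.17 (Rrn3), -0.077 to 0.12 (Rrp12), -0.14 to 0.069 (Ubtf) and -0.067 to 0.19 (Utp4).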
